A study of Arabidopsis thaliana with 14 samples.

Results

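SWEET proteins are membrane transporters that let sugars pass along their gradient, and in leaves they are best known for releasing sucrose from phloem parenchyma cells towards the companion cells that load it into the sieve tubes. *Arabidopsis* has 17 such genes in 4 clades. Members of clade I and clade II mainly carry hexoses, those of clade III mainly carry sucrose, and those of clade IV lie in the vacuolar membrane and carry fructose and other sugars. A senescing leaf breaks down its cell content and exports sugars and nitrogen, so these carriers stand at the exit of the leaf.

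The 10 *SWEET* genes described here were taken by gene identifier from 33278 identifiers in the expression tables: *SWEET1* (AT1G21460) and *SWEET2* (AT3G14770) of clade I, *SWEET4* (AT3G28007) of clade II, *SWEET10* (AT5G50790), *SWEET11* (AT3G48740), *SWEET12* (AT5G23660), *SWEET13* (AT5G50800) and *SWEET15* (AT5G13170) of clade III, and *SWEET16* (AT3G16690) and *SWEET17* (AT4G15920) of clade IV. RNA-seq was made from leaves of *Arabidopsis thaliana* Col-0 (WT) and of the T-DNA insertion lines *hda9* (SALK_007123) and *pwr* (SALK_071811C), all grown in soil under continuous light. *HDA9* encodes a histone deacetylase, *PWR* encodes its SANT domain partner POWERDRESS, and each mutant was represented by 1 insertion allele. Early senescent (ES) leaves gave 2 libraries each of *hda9*, *pwr* and WT, and young leaves (YL) gave 1 library of *hda9* and 2 of WT. The labels give an age of 2 weeks for YL, the study's methods describe younger seedlings, and neither gives an age for ES. The study asked what HDA9 and PWR do in leaf senescence, and compared each mutant with WT.

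Levels are in FPKM, which scales the fragments of a gene by the length of its transcript and by the size of the library, so that levels can be compared between genes. The tables hold no counts, so no counting interval can be given. In *hda9* ES leaves *HDA9* itself had 1.12 and 3.21 FPKM, against 5.94 and 11.7 FPKM in WT, and in *pwr* ES leaves *PWR* had 7.01 and 6.02 FPKM, against 10.2 and 17.0 FPKM in WT. Transcripts from an insertion allele can still be counted. The low FPKM values of 5 libraries (*hda9* ES replicate 2, both *pwr* ES libraries, WT ES replicate 2 and WT YL replicate 2) fell on common steps, and those of the other 4 did not. The libraries with and without such steps are treated as library sets, which no label names, and both *pwr* libraries belong to the set with steps. The leaf markers (6 genes of Rubisco, its activase and the light reactions) summed to between 5298 and 30434 FPKM in the ES libraries. The sums were 5298 to 18613 FPKM in *hda9*, 13806 to 18263 FPKM in *pwr* and 13885 to 30434 FPKM in WT. Each of the 6 had a lower mean in *hda9* than in WT. The flower and seed markers (5 genes) summed to at most 1.41 FPKM in the ES libraries, with the seed storage gene *AT2S1* listed at 0 in all 6. The root markers (4 genes) summed to between 14.0 and 30.8 FPKM in ES leaves and between 619 and 927 FPKM in YL, where nearly all of it was *PYK10*, with 601 FPKM in *hda9* and 622 and 916 FPKM in WT. The root hair genes *RHD6* and *COBL9* had between 0.155 and 0.494 FPKM in YL and at most 0.083 FPKM in ES leaves.

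*SWEET2* passed the test in *hda9*, and *SWEET10* was higher there but entered the test only through its *hda9* level. *SWEET11*, *SWEET12* and *SWEET15* are the most abundant. The stretches of 250 bases upstream of these 5 genes are shown. They were read from the TAIR10.1 genome, all on the minus strand, at chr3:4959705-4959954 for *SWEET2*, chr5:20658002-20658251 for *SWEET10*, chr3:18054833-18055082 for *SWEET11*, chr5:7973996-7974245 for *SWEET12* and chr5:4183355-4183604 for *SWEET15*. Each ends at the base before the annotated start, and capitals mark matches on either strand of TTGAC, the core of the W-box that WRKY factors bind, or of ACGTG, the core shared by many bZIP and bHLH sites. The window of *SWEET2* overlaps the annotated lncRNA gene AT3G02995, and no annotated gene lies in the others.
SWEET2: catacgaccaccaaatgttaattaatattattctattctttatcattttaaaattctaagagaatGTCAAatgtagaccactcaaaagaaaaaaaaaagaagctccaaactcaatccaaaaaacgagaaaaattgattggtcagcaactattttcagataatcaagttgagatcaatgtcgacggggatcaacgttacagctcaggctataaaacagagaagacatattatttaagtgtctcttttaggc
SWEET10: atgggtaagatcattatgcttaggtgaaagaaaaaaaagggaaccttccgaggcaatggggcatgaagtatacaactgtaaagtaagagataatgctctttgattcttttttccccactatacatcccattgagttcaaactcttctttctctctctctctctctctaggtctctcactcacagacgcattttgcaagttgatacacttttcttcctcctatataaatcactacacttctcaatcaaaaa
SWEET11: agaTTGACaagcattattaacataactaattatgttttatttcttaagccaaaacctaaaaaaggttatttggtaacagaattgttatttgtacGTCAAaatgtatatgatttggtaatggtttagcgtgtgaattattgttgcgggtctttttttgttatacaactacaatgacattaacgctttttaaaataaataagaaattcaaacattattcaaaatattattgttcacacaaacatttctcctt
SWEET12: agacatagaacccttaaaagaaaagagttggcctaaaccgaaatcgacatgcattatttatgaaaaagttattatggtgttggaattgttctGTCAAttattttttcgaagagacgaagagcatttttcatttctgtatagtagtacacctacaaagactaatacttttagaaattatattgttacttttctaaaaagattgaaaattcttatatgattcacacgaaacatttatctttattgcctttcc
SWEET15: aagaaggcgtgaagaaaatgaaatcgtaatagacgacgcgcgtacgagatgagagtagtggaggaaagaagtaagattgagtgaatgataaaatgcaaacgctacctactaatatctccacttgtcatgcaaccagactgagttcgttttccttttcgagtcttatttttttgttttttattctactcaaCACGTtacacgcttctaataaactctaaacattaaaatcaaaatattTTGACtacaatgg
Over the 10 genes, TTGAC was found in 4 windows (*SWEET2*, *SWEET11*, *SWEET12* and *SWEET15*) and in 44.9% of the 27443 such windows of the genome. ACGTG was found in 3 windows (*SWEET4*, *SWEET13* and *SWEET15*) and in 22.9% of all windows. The longer CACGTG, which contains ACGTG, was found in *SWEET4* alone among the 10 and in 6.49% of all windows. The window of *SWEET10* held none of these letters.

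All 10 genes have 6 exons and lie on the minus strand. *SWEET10* and *SWEET13* are neighbours on chromosome 5 with 7066 bases and no annotated gene between them. *SWEET11* and *SWEET12* match at 82.6% of 852 aligned coding bases, with a longest common transcript stretch of 29 bases. *SWEET16* and *SWEET17* match at 80.1% of 685 bases (longest stretch 19). *SWEET13* and *SWEET14*, which is not among the 10 genes, match at 82.6% of 838 bases (longest stretch 24). Part of the reads of these pairs could be exchanged between partners. *SWEET1* overlaps AT1G21450 on the other strand, and the kit named in the study's methods keeps no strand, so their shared reads cannot be told apart.

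Sucrose carriers of clade III made up most of the *SWEET* RNA in ES leaves. The summed level of the 10 genes was 1855 and 1267 FPKM in *hda9*, 879 and 1250 FPKM in *pwr*, and 1322 and 1355 FPKM in WT. Clade III held 92.4% and 91.5% of it in *hda9*, 89.8% and 92.0% in *pwr*, and 90.5% and 86.4% in WT. In YL the sum was 156 FPKM in *hda9*, against 255 and 221 FPKM in WT. There clade III held 49.5% in *hda9*, against 47.2% and 64.0% in WT. The share of clade III was thus higher in every ES library than in every YL library, and within ES leaves each *hda9* library exceeded each WT library, while *pwr* overlapped WT.

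**Figure D1:**
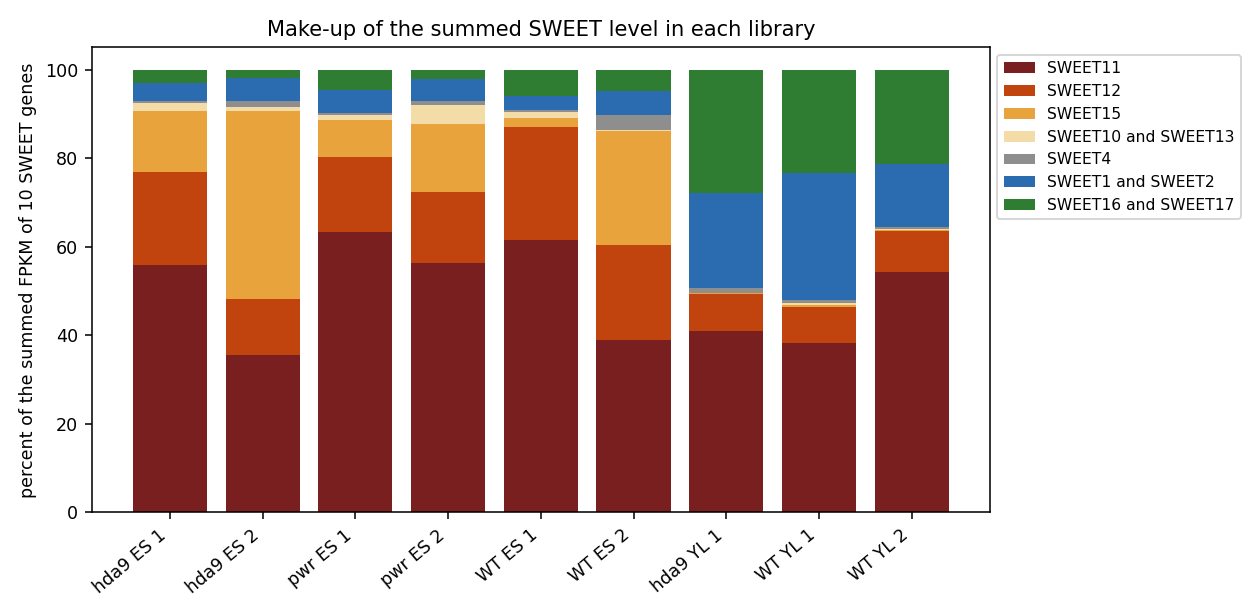
Percent of the summed FPKM of the 10 *SWEET* genes held by each gene or group of genes (vertical axis), as stacked bars for each of the 9 libraries. SWEET15 takes 42.5% of the bar in *hda9* ES replicate 2 and 1.94% in WT ES replicate 1, and under 1% in the YL libraries.

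Across the 6 ES libraries *SWEET11* stood first at 681 FPKM on average (449 to 1037), above *SWEET12* at 255 (148 to 389) in every library. *SWEET15* followed at 239 (25.6 to 538), *SWEET1* at 47.3 (36.8 to 58.6), *SWEET17* at 47.1 (22.6 to 76.5), *SWEET13* at 20.7 (4.61 to 52.2), *SWEET4* at 15.0 (3.68 to 46.2) and *SWEET2* at 13.3 (4.81 to 23.7). *SWEET16* at 1.72 (0.594 to 2.97) and *SWEET10* at 1.32 (0.0849 to 5.0) came last. The ranges of neighbours in this order overlapped except between *SWEET11* and *SWEET12* and between *SWEET2* and *SWEET16*. *SWEET1* varied least between libraries, by 1.59 times from lowest to highest, and *SWEET10*, *SWEET15*, *SWEET4* and *SWEET13* varied by 58.9, 21.0, 12.6 and 11.3 times.

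**Figure D2:**
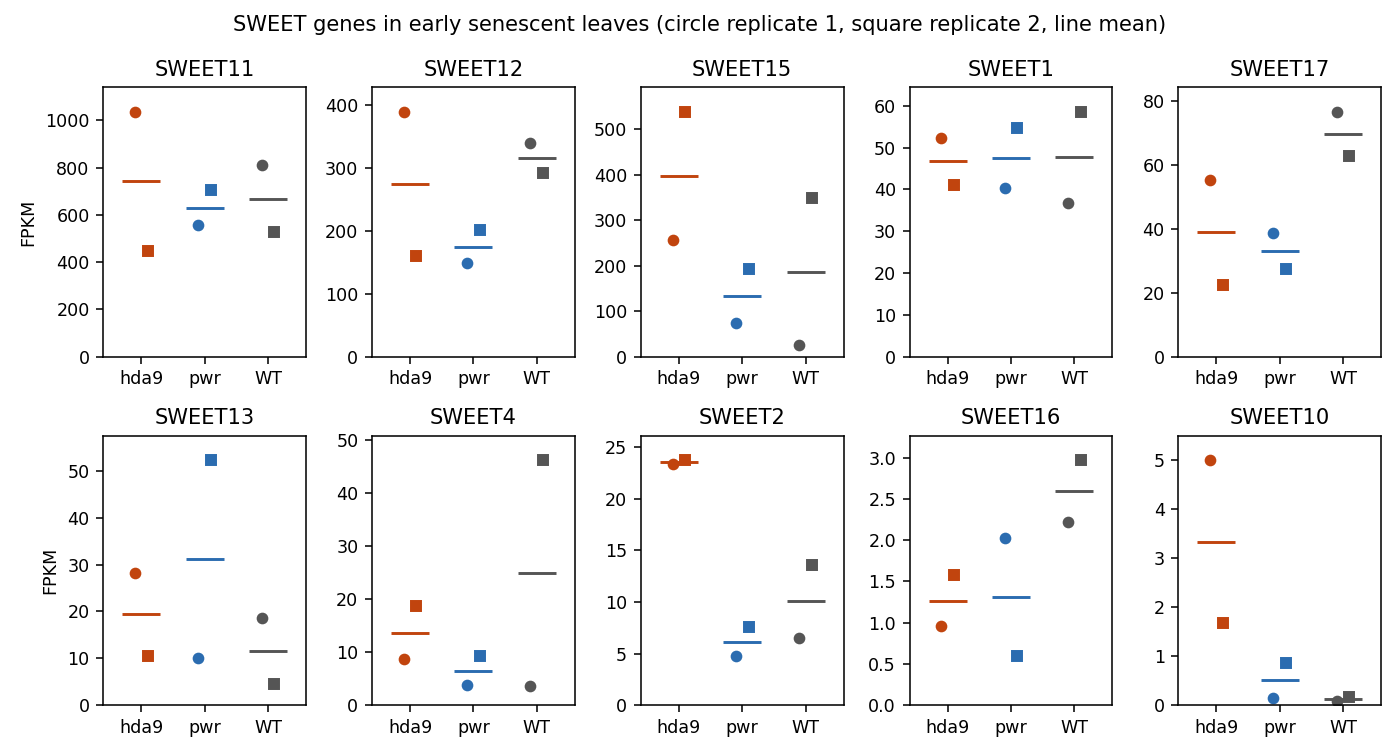
FPKM (vertical axis, from 0) of each *SWEET* gene in *hda9*, *pwr* and WT ES leaves, with circles for replicate 1, squares for replicate 2 and a line at the mean. The 2 *hda9* points lie above the other 4 for *SWEET2* and *SWEET10*, while for *SWEET15* and *SWEET4* the WT replicates lie far apart.

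In *hda9* ES leaves, *SWEET2* passed the unadjusted threshold as higher than in WT, and none of the 10 genes passed it as lower. *SWEET10* was higher in *hda9* as well, but entered the test only through its *hda9* level, so its values are given as a description. The test was limma's on the log2(FPKM + 1) scale, two-sided, and a gene with an unadjusted p under 0.05 was called, with the p adjusted over all genes tested (Benjamini-Hochberg) given beside it. *SWEET2*, a glucose carrier of the vacuolar membrane known from roots, had 23.3 and 23.7 FPKM in *hda9*, against 6.56 and 13.6 FPKM in WT. Both *hda9* libraries were above both WT libraries. The difference of 1.22 (standard error 0.40) was called, with an adjusted p = 0.908 (limma). *SWEET10*, a clade III gene known for its induction during the floral transition at the shoot apex, had 5.0 and 1.67 FPKM in *hda9*, against 0.0849 and 0.159 FPKM in WT. Again both *hda9* libraries were above both WT libraries, with a difference of 1.84 (standard error 0.50, adjusted p = 0.908, limma) that was under the unadjusted threshold. Its mean of at least 1 FPKM, which a gene needed to be tested, was reached only with the *hda9* libraries. With a pseudocount of 0.1 in place of 1 its difference was 3.78, since a pseudocount of 1 shrinks changes at such levels.

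*SWEET10* was close to the detection limit of the libraries with steps. There, values corrected for relative depth were whole multiples (within 0.001) of the value in WT ES replicate 2, which may stand for a single read. The multiple was 11 in *hda9* ES replicate 2, 1 and 6 in the *pwr* ES libraries, 1 in WT ES replicate 2 and 1 in WT YL replicate 2.

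Of the 18140 genes tested, 4.93% were called in *hda9* against WT in ES leaves (2.23% higher, 2.71% lower), and 0.0276% had an adjusted p under 0.05. Of the 10 *SWEET* genes 2 were called, *SWEET2* and, tested only through its *hda9* level, *SWEET10*, and neither had an adjusted p under 0.05. The median difference of the 10 was 0.03, beside 0.01 for all genes tested, with 5 above 0 and 5 below. The call of *SWEET2* was lost without WT ES replicate 1 (a difference of 0.75), *hda9* ES replicate 1 (1.23) or *hda9* ES replicate 2 (1.21).

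The most abundant carriers gave no call, with wide spreads. *SWEET11*, which with *SWEET12* releases sucrose for phloem loading, had 1037 and 449 FPKM in *hda9*, against 813 and 526 FPKM in WT. *SWEET12* had 389 and 160 FPKM in *hda9*, against 339 and 292 FPKM in WT. Both WT values lay within the range of the *hda9* values for these 2 genes, and the differences were 0.06 (standard error 0.51) and -0.33 (standard error 0.48). *SWEET11* exceeded *SWEET12* 2.67 and 2.80 times in *hda9*, 3.75 and 3.51 times in *pwr*, and 2.40 and 1.80 times in WT.

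*SWEET15*, also known as *SAG29* for its induction in senescing leaves, had 256 and 538 FPKM in *hda9*, against 25.6 and 348 FPKM in WT. The WT libraries lay further apart than the groups, which overlapped. The difference was 1.95 with a standard error of 1.24 and was not called (adjusted p = 0.912, limma). Without WT ES replicate 1 it was 0.09, and without WT ES replicate 2 it was 3.80 and called, so 1 WT library decides its size. Within the library sets *SWEET15* was 3.27 higher in *hda9* than in WT in the set without steps and 0.63 higher in the set with steps, with 1 library each and no test. The 13 senescence markers, which do not include *SWEET15*, summed to 2227 and 4461 FPKM in the *hda9* ES libraries, against 869 and 2684 FPKM in WT. These groups overlapped, and the *pwr* sums lay between 806 and 1158 FPKM. In *hda9* minus WT 10 of the 13 were above 0 and 3 below (*SAG21*, *SEN1* and *WRKY53*). The part of these markers in the *SWEET15* level was not tested.

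*SWEET13*, a sucrose carrier of the phloem like *SWEET11* and *SWEET12*, had 28.2 and 10.5 FPKM in *hda9*, against 18.7 and 4.61 FPKM in WT. Within each library set the *hda9* value was above WT, by 0.57 and 1.04, and over both sets the groups overlapped (0.80, standard error 0.97). *SWEET4*, a hexose carrier of veins, had 8.64 and 18.7 FPKM in *hda9*, against 3.68 and 46.2 FPKM in WT. *SWEET1*, a glucose carrier of the plasma membrane, had 52.4 and 41.1 FPKM in *hda9*, against 36.8 and 58.6 FPKM in WT. Both *hda9* values of *SWEET4* and *SWEET1* lay between their WT values.

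The clade IV carriers were below WT in both mutants without passing the test. *SWEET17*, a fructose carrier of the vacuolar membrane, had 55.1 and 22.6 FPKM in *hda9*, 38.5 and 27.4 FPKM in *pwr*, and 76.5 and 62.7 FPKM in WT. Each mutant library was below each WT library. The difference from WT was -0.95 (standard error 0.47, adjusted p = 0.908, limma) in *hda9* and -1.07 (standard error 0.47, adjusted p = 0.729, limma) in *pwr*. Both comparisons share the WT libraries. The *hda9* difference of *SWEET17* was called without *hda9* ES replicate 1 (-1.58) and with a block for the library set, and the *pwr* difference, then -0.68, was not called with that block. *SWEET16*, its partner at the vacuolar membrane, had 0.957 and 1.58 FPKM in *hda9*, 2.03 and 0.594 FPKM in *pwr*, and 2.21 and 2.97 FPKM in WT. Again every mutant library was below every WT library, at levels that left the gene near the filter. Of all genes tested, 16.0% had both *hda9* libraries below both WT libraries, and 2 of the 10 *SWEET* genes did. For *pwr* the values were 16.7% of all genes and 3 of the 10, *SWEET12*, *SWEET16* and *SWEET17*.

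In *pwr* ES leaves none of the 10 genes passed the test against WT, while 6.47% of all genes tested did (limma, unadjusted; 3.65% higher, 2.82% lower). At an adjusted p under 0.05 the count was also 0, beside 0.0331% of all genes. The median difference of the 10 was -0.32, beside 0.08 for all genes tested, with 4 above 0 and 6 below. No *SWEET* gene had both *pwr* libraries above both WT libraries, as 25.7% of all genes did. *SWEET12* had 148 and 201 FPKM in *pwr*, against 339 and 292 FPKM in WT, a difference of -0.86 (standard error 0.48, adjusted p = 0.738, limma). *SWEET15* had 74.5 and 193 FPKM in *pwr*, between the 25.6 and 348 FPKM of WT. *SWEET13* had 10.2 and 52.2 FPKM in *pwr*, against 18.7 and 4.61 FPKM in WT. *SWEET2* had 4.81 and 7.55 FPKM in *pwr*, against 6.56 and 13.6 FPKM in WT. In a fit of *pwr* and WT alone, and in the fits without either *hda9* ES library, *SWEET12* and *SWEET17* were called as lower, with the same differences. The fit of *pwr* and WT alone called 648 genes of 18140 higher and 577 lower. The set with steps holds the 2 *pwr* libraries but only 1 WT library of ES leaves, so genotype and library set are partly confounded in this comparison. With a block for the set *SWEET4* was called (-2.17), and *SWEET12* and *SWEET17* were not. Of 18140 genes, 1032 were called higher and 1202 lower with that block.

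**Figure D3:**
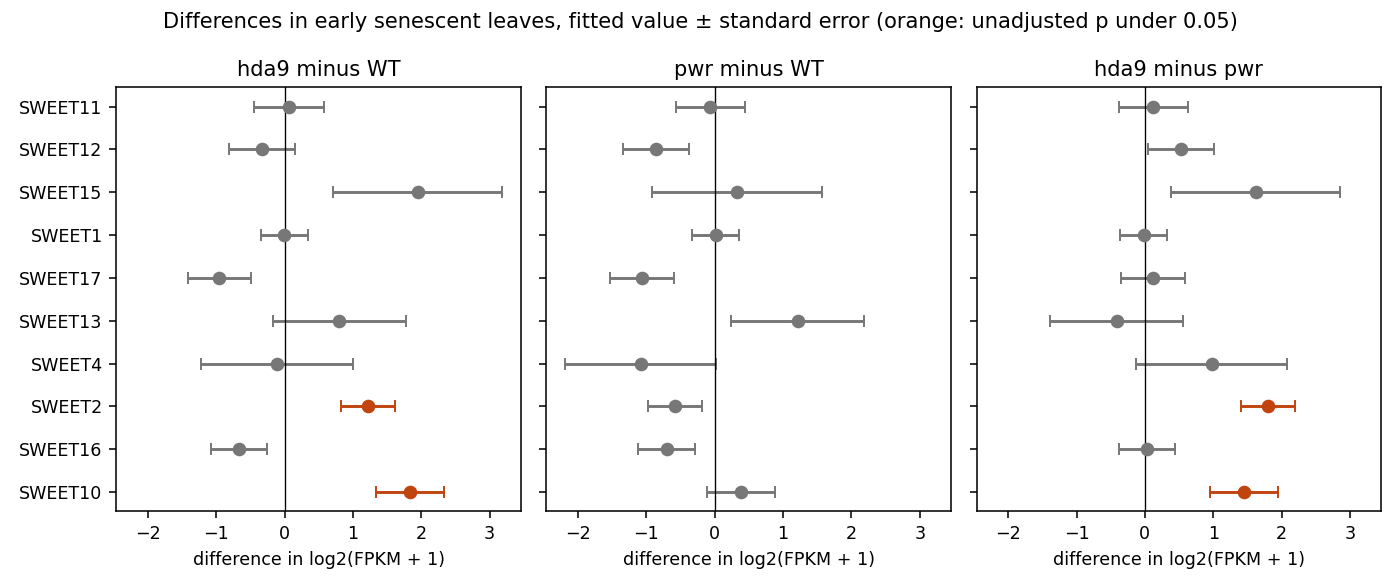
Difference in log2(FPKM + 1) with its standard error (horizontal axis) for each *SWEET* gene in ES leaves, for *hda9* minus WT, *pwr* minus WT and *hda9* minus *pwr*. Orange points have an unadjusted p under 0.05, and these are *SWEET2* and *SWEET10* in the panels for *hda9* minus WT and *hda9* minus *pwr*.

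The mutants differed from each other at *SWEET2* by the unadjusted threshold. It was higher in *hda9* than in *pwr* by 1.80 (standard error 0.40, adjusted p = 0.701, limma), with no overlap between 23.3 and 23.7 FPKM in *hda9* and 4.81 and 7.55 FPKM in *pwr*. The call held with any single ES library left out. *SWEET10*, tested again only because of its *hda9* level, was higher by 1.45 (standard error 0.50, adjusted p = 0.926, limma), with 5.0 and 1.67 FPKM in *hda9* and 0.154 and 0.859 FPKM in *pwr*. That call was lost with a block for the library set (1.18), without *hda9* ES replicate 1 (0.87) and without *pwr* ES replicate 1 (1.11). Of all genes tested, 4.77% were called in *hda9* against *pwr* (2.01% higher, 2.76% lower), which were 365 higher and 500 lower genes, or 519 higher and 414 lower after median ratio scaling. Of the 10 *SWEET* genes 2 were called, both higher, and 0 had an adjusted p under 0.05, as did 0% of all genes. *SWEET15* was above *pwr* in both *hda9* libraries without passing (1.62, standard error 1.24, adjusted p = 0.935, limma). With a block for the library set, 1797 genes of 18140 were called higher and 1643 lower. *SWEET15* (2.82) and *SWEET4* (2.07, against 0.98 without the block) then joined *SWEET2* among the genes called higher. Together with *SWEET2* and *SWEET10*, *SWEET15* made 3 genes with both *hda9* libraries above both *pwr* libraries, beside 14.4% of all genes. No *SWEET* gene had both below, beside 19.9%. The comparison shares its *hda9* libraries with the one against WT.

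Other sugar genes were taken from lists of sucrose transporters, monosaccharide transporters and enzymes of sucrose metabolism. In *hda9* against WT in ES leaves, 0 of 4 tested sucrose transporters passed, where 2.23% of all genes were called higher and 2.71% lower. *SUC2*, which loads sucrose into companion cells, had 370 and 178 FPKM in *hda9*, against 291 and 167 FPKM in WT. Of 12 monosaccharide transporters none rose and 2 fell, the vacuolar glucose carrier *VGT1* (-0.57) and the sugar porter *SFP2* (-1.50). *SFP2* has a close relative, *SFP1*, and how far reads were shared between them was not measured. Of 7 enzymes 1 rose, the cell wall invertase *CWINV1*, which splits sucrose outside the cell (1.57). In *pwr* against WT, where 3.65% of all genes were called higher and 2.82% lower, 0 of 4 sucrose transporters and 2 of 12 monosaccharide transporters passed, again *VGT1* (-0.57) and *SFP2* (-1.56), both lower and compared with the same WT libraries. Of the 7 enzymes, the vacuolar invertases *VI1* (-1.34) and *VI2* (-0.74) fell in *pwr* and the sucrose phosphate synthase *SPSC* (1.01) rose. Their adjusted p ran from 0.622 to 0.908 (limma). The 7 remaining *SWEET* genes did not reach the filter, and the most abundant of them, *SWEET14*, averaged 1.29 FPKM in *hda9*, 0.431 FPKM in *pwr* and 1.21 FPKM in WT ES leaves.

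In YL the 10 genes had another order. *SWEET11* was again first with 64.1 FPKM in *hda9* and 97.2 and 120 FPKM in WT. *SWEET17* was next with 37.7 FPKM in *hda9* and 48.1 and 40.4 FPKM in WT. *SWEET2* had 12.1 FPKM in *hda9*, against 45.0 and 14.3 FPKM in WT. *SWEET1* had 21.3 FPKM in *hda9*, against 28.2 and 17.4 FPKM in WT, and *SWEET12* had 12.9 FPKM in *hda9*, against 21.0 and 20.7 FPKM in WT. *SWEET16* had 5.67 FPKM in *hda9*, against 11.5 and 6.63 FPKM in WT. The ranges of *SWEET2*, *SWEET1* and *SWEET12* over the 3 libraries overlapped. *SWEET4*, *SWEET15*, *SWEET13* and *SWEET10* were at or under 1.96 FPKM in all 3 YL libraries, and *SWEET13* and *SWEET10* were listed at 0 in *hda9*.

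Of the 10 genes 7 passed the filter in YL (not *SWEET10*, *SWEET13* and *SWEET15*), and none was called in *hda9* against WT, beside 8.72% of the 17780 genes tested (limma, unadjusted; 3.78% higher, 4.94% lower). None had an adjusted p under 0.05 either, beside 0.107% of all genes. The 1 *hda9* library was taken to vary like the 2 WT libraries. It was above both WT libraries for *SWEET4* and below both for 7 of the 10 genes. These were *SWEET2*, *SWEET11*, *SWEET12*, *SWEET16* and *SWEET17*, which were tested, and *SWEET10* and *SWEET13*, which were not and were listed at 0 in *hda9*. Of all genes tested, 39.8% were below both and 34.2% above both, shares that leave out *SWEET10* and *SWEET13*. The median difference of the 7 tested *SWEET* genes was -0.55, beside -0.06 for all genes tested. The sizes closest to the threshold were those of *SWEET11* (-0.74, standard error 0.43, adjusted p = 0.636, limma) and *SWEET12* (-0.66, standard error 0.38, adjusted p = 0.636, limma).

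*SWEET2* in *hda9* lay above WT in ES and below WT in YL, where the difference of -1.01 was not called. The YL value rests on 1 WT library, since it was -0.22 without WT YL replicate 1 and -1.81 without WT YL replicate 2. The difference between the effects in the 2 stages, as an interaction over all 9 libraries, was 2.23 for *SWEET2* (standard error 0.89, adjusted p = 0.624, limma). It was computed after the pattern had been seen in the same values, so its unadjusted p under 0.05 is no independent support. Each effect is a difference within 1 table, and the YL effect rests on 1 *hda9* library. No other of the 9 *SWEET* genes in that test had an unadjusted p under 0.05, while 7.94% of the 18755 genes tested did.

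ES and YL levels come from separate tables and are given side by side with no test. In WT, *SWEET15* averaged 187 FPKM in ES leaves, against 0.755 FPKM in YL. *SWEET13* averaged 11.6 FPKM in ES, against 0.487 FPKM in YL. *SWEET4* averaged 24.9 FPKM in ES, against 1.32 FPKM in YL. The ratios of these WT means were 247, 23.9 and 18.9 times, and they depend on single WT ES libraries. On the log2(FPKM + 1) scale ES minus YL was 2.70 for *SWEET4* and 1.04 without WT ES replicate 2, 5.86 for *SWEET15* and 4.0 without the same library, and 2.83 for *SWEET13* and 1.92 without WT ES replicate 1. Without WT ES replicate 1 *SWEET4* had 4.37 and *SWEET15* 7.71, and without WT ES replicate 2 *SWEET13* had 3.73. *SWEET12* averaged 315 FPKM in ES, against 20.9 FPKM in YL, and *SWEET11* averaged 669 FPKM in ES, against 109 FPKM in YL. In each of these 5 genes both WT ES libraries were above both WT YL libraries.

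In *hda9* the same 5 genes were also above YL in both ES libraries. *SWEET15* had 256 and 538 FPKM in *hda9* ES, against 0.253 FPKM in *hda9* YL. *SWEET11* had 1037 and 449 FPKM in ES, against 64.1 FPKM in YL. *SWEET13* had 28.2 and 10.5 FPKM in ES and was listed at 0 in YL. *SWEET10* was likewise listed at 0 in *hda9* YL, with 5.0 and 1.67 FPKM in *hda9* ES, while in WT it had 0.0849 and 0.159 FPKM in ES, against 0.314 and 0.204 FPKM in YL. *SWEET16* went the other way, with 0.957 and 1.58 FPKM in *hda9* ES, against 5.67 FPKM in YL, and with 2.21 and 2.97 FPKM in WT ES, against 11.5 and 6.63 FPKM in YL. *SWEET2* lay below YL in WT (6.56 and 13.6 FPKM in ES, 45.0 and 14.3 FPKM in YL) and above YL in *hda9* (23.3 and 23.7 FPKM in ES, 12.1 FPKM in YL). The root markers summed to 14.0 to 30.8 FPKM in ES and 619 to 927 FPKM in YL. This sum moved with stage in the direction of *SWEET16* in both genotypes and of *SWEET2* in WT, nearly all of it through *PYK10*. The root marker *SCR* overlapped between the stages in WT, and in *hda9* both ES libraries were below YL. *RHD6* and *COBL9* were at or under 0.494 FPKM in every library, and at these low levels both were also higher in YL. *RHD6* was listed at 0 in the ES libraries, against 0.185 FPKM in *hda9* YL and 0.253 and 0.358 FPKM in WT YL. *COBL9* had at most 0.083 FPKM in ES, against 0.155 FPKM in *hda9* YL and 0.188 and 0.494 FPKM in WT YL. The part of these markers in the levels of *SWEET16* and *SWEET2* was not tested.

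**Figure D4:**
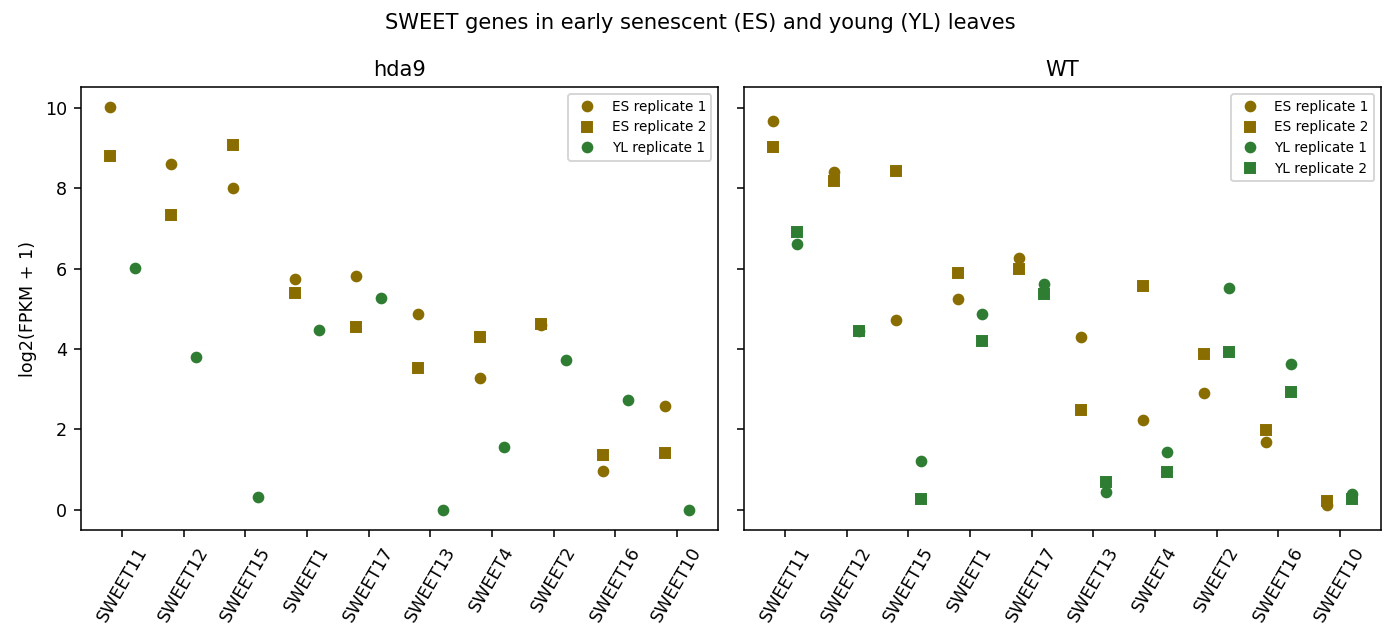
log2(FPKM + 1) of each *SWEET* gene (vertical axis) in ES leaves (brown) and YL (green), for *hda9* on the left and WT on the right, with circles for replicate 1 and squares for replicate 2. *SWEET11*, *SWEET12*, *SWEET13*, *SWEET15* and *SWEET4* lie higher in ES in both genotypes, and *SWEET16* lies lower. *SWEET2* lies higher in ES in *hda9* and lower in WT, where the points of replicate 2 are close together.

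The tables were shifted against each other for all genes. The median of ES minus YL on the log2(FPKM + 1) scale over 18755 genes was 0.54 in WT and 0.68 in *hda9*, and 51.9% of genes in WT and 59.6% in *hda9* had all ES libraries above all YL libraries. In WT 7 of the 10 *SWEET* genes did, and 3 had all ES libraries below (19.4% of all genes). In *hda9* 8 did, and 1 was below (28.2% of all genes). These counts include *SWEET10* (below in WT, above in *hda9*), which averaged under 1 FPKM and is not among the 18755 genes. Relative to the median of all genes, the WT difference was 5.31 for *SWEET15*, 3.31 for *SWEET12*, 2.28 for *SWEET13*, 2.16 for *SWEET4* and 2.04 for *SWEET11*. It was 0.49 for *SWEET1* and 0.10 for *SWEET17*, whose levels overlapped between the stages in WT under median ratio scaling. It was -1.88 for *SWEET2*, -1.99 for *SWEET16* and -0.71 for *SWEET10*. For *SWEET10* it was -0.17 before the median was taken off, and WT replicate 2 stood at the same multiple of 1 in both stages. After median ratio scaling *SWEET17* was below YL in *hda9* and the position of *SWEET2* above YL in *hda9* shrank to 0.19.

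Phloem markers moved with stage as well. The 4 of them (*SUC2*, *AHA3*, *PP2-A1* and *APL*) summed to 898 and 1046 FPKM in *hda9* ES leaves and to 811 and 853 FPKM in WT ES leaves, against 122 FPKM in *hda9* YL and 104 and 191 FPKM in WT YL. In whole leaves more phloem and more RNA per phloem cell cannot be told apart, and the part of these markers in the levels of *SWEET11*, *SWEET12* and *SWEET13* was not tested. In *hda9* against WT in ES leaves 0 of the 4 phloem markers passed the test.

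Pearson's r of log2(FPKM + 1) over the 6 ES libraries was used to describe which levels went together. These libraries share genotypes and library sets, and no test was made of these values. With 6 libraries the highest r among all genes tested can lie near 1 through selection alone, so the genes named are a description. Among the 10 genes r was 0.81 for *SWEET12* and *SWEET17*, 0.80 for *SWEET4* and *SWEET15*, 0.78 for *SWEET2* and *SWEET15*, 0.77 for *SWEET2* and *SWEET10*, and 0.75 for *SWEET11* and *SWEET12*. It was -0.90 for *SWEET13* and *SWEET16*, and 0.43 for the neighbours *SWEET10* and *SWEET13*. Among all genes tested, those most like the leading gene of each clade were AT5G38610, *CTL2* and *KLCR2* for *SWEET1* (0.99 each), *GSTU5* (0.99), AT5G54165 (0.99) and the nitrate transporter *NRT1.7* (0.98) for *SWEET4*, AT2G06950, AT5G67200 and the plastid desaturase *FAD8* (0.99 each) for *SWEET11*, and *RCP1*, *GH9B7* and AT1G20120 for *SWEET17* (over 0.99 each).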

How the data were processed

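Per the labels and methods, the authors aligned reads with Bowtie2 and TopHat to TAIR10, collapsed reads at identical positions, and deposited 1 table each for ES leaves and YL with the FPKM from Cufflinks of 33278 gene identifiers in each library. FPKM were compared as log2(FPKM + 1) in R 4.3.3 by limma 3.58.1 (trended eBayes after lmFit, two-sided), over genes whose FPKM averaged 1 or more, with the 3 ES genotypes in 1 fit and no replicate block. P-values were adjusted over all genes tested (Benjamini-Hochberg). The procedure was tested on simulated data. The rule named the 10 genes, *HDA9* and *PWR*, examples from the fixed lists, and for the most abundant gene of each clade the 3 genes with the highest r. Members and lists were chosen with earlier results of these data known. The interaction test was added after the data were seen. The 2 samples of a group are biological replicates by the study's methods. Sequences and gene models are from RefSeq's TAIR10.1, to which 32820 identifiers were matched; the tables hold no coordinates. Biopython 1.88, Python 3.11.15, pandas 2.3.3, numpy 2.4.6 and matplotlib 3.10.9 were used. Alternatives were a pseudocount of 0.1, no filter or one of 5, scaling to the 75th percentile or by median ratios, blocks for replicate number and library set, fits of 2 groups, adjusted p, and leaving out each library. Columns of no sample numbered 0, and the ChIP-seq samples were not analysed here.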

Additional observations from a re-analysis of the deposited data

Results flagged for a closer look

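The difference between the mutants in ES leaves put *SWEET2* and *SWEET10* on the list for a closer look. The effect of *hda9* exceeded that of *pwr* by 1.80 on the log2(FPKM + 1) scale for *SWEET2* and by 1.45 for *SWEET10*, each tested as *hda9* minus *pwr* in limma, with 2 of 2 *hda9* libraries above 2 of 2 *pwr* libraries and no adjusted p under 0.05. *SWEET10* was tested only because of its *hda9* level, so its difference is a description. For *SWEET2* the effect of *hda9* also differed between stages, by 2.23 (adjusted p = 0.624, limma), a value computed after the pattern had been seen, with the YL effect resting on 1 *hda9* library. For *SWEET10* the *hda9* libraries were above WT in ES leaves and below WT in YL, where the gene was listed at 0 in *hda9* and the difference was -0.33. The YL side lies at the detection limit, since WT YL replicate 2 held the multiple of 1 that may stand for a single read. That contrast between stages was not tested for *SWEET10*, which had a mean under 1 FPKM over the 9 libraries.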

How the results depend on the processing

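Without the filter on FPKM 1697 genes were called in *hda9* against WT in ES leaves, 2047 in *pwr* against WT and 1820 in *hda9* against *pwr*, beside 895, 1173 and 865. With a replicate block these counts were 1560, 2161 and 1495, and with a block for the library set they were 3075, 2234 and 3440. At an adjusted p under 0.05 they were 5, 6 and 0, and 19 in YL, with 0 *SWEET* genes in any comparison. Leaving out 1 library gave between 477 and 1698, between 436 and 1388, and between 490 and 1098 genes. With the filter of 5 FPKM, 310 genes of 14193 were called higher and 341 lower in *hda9* against WT. In *hda9* against *pwr* these counts were 310 and 347. Of the *SWEET* genes called, this stricter filter removed *SWEET10* and left 1 in *hda9* against WT and 1 in *hda9* against *pwr*. With the replicate block 4 were called in *hda9* against WT (also *SWEET15* and *SWEET17*) and 1 in *pwr* against WT (*SWEET17*). Over all genes, the fit of *pwr* and WT alone called 648 higher and 577 lower of 18140. Without a filter 1112 genes of 33278 were called higher and 885 lower in YL. Of the *SWEET* genes, the block for the library set called 1 in *pwr* against WT (*SWEET4*). The fit of *pwr* and WT alone called 2 *SWEET* genes (*SWEET12* and *SWEET17*), and YL without a filter called 1 (*SWEET12*). Leaving out 1 library left between 1 and 3 called in *hda9* against WT, between 0 and 2 in *pwr* against WT, and between 1 and 3 in *hda9* against *pwr*.

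Among values that reversed with 1 library left out, *hda9* minus WT in ES leaves ran from -0.54 to 0.66 for *SWEET11*, from -0.97 to 0.30 for *SWEET12* and from -0.10 to 1.71 for *SWEET13*, and *pwr* minus WT ran from -2.75 to 0.58 for *SWEET4*. Over the 10 genes and all alternatives in ES leaves, 8 of 148 values changed sign in *hda9* against WT, 12 of 148 in *pwr* against WT and 15 of 148 in *hda9* against *pwr*. In YL 1 of 41 did with every library kept, and the difference of *SWEET1*, -0.05 with both WT libraries, was 0.28 without WT YL replicate 1. None of these was a called value. The cause of these shifts was not tested. The number of WT *SWEET* genes with ES above YL was 7, and 6 and 5 after scaling to the 75th percentile and by median ratios. Replicate numbers were not taken to pair the samples, since deviations of same-numbered libraries did not correlate in every pair of genotypes: r was 0.55 for WT and *hda9*, whose numbers coincide with the library sets, 0.10 for WT and *pwr* and -0.01 for *hda9* and *pwr*. With 2 libraries in a group, and no counts, small differences cannot be seen.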
